A study of Homo sapiens with 6 samples.

Results

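The ABC (ATP-binding cassette) transporter family was followed in 786-O cells in which the long non-coding RNA LINC02068 was targeted with short hairpin RNAs. Members were the rows of the count table whose symbol consists of ABC, a subfamily letter from A to G and a number. This rule took 46 of 60649 genes, of which 31 had enough reads to be tested, among 16039 tested genes in all. The 786-O cells are a long-established human line from a clear cell renal carcinoma and lack working VHL protein. The 3 groups were cells with hairpin shRNA1 against LINC02068, cells with hairpin shRNA2 against LINC02068 and cells with a control hairpin (shControl), each with 2 libraries and no further treatment. The labels do not say whether replicates were separate cultures or whether the cells were a pool or a clone, so the p-values may reflect technical spread alone.

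ABC proteins couple ATP binding and hydrolysis to movement of their domains. Most carry lipids, drugs, conjugates or peptides across membranes, some working as complete proteins and others as dimers of shorter chains. Members of subfamilies E and F have no membrane spans and act on ribosomes. In renal tubules and renal carcinoma the family is known for drug export by ABCB1, ABCG2 and the ABCC proteins, and for cholesterol export by ABCA1.

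Libraries held 15376448 to 37311846 counts. Levels are given as CPM (counts relative to library size, with TMM factors that correct for differences in library composition). A gene was called when its edgeR quasi-likelihood p, adjusted over all tested genes by the Benjamini-Hochberg method, was under 0.05. Errors are standard errors unless marked SD. LINC02068 had 9 and 2 counts with shRNA1, 17 and 10 with shRNA2, and 20 and 32 in shControl libraries. Its level was 0.605 and 0.105 CPM with shRNA1, 0.472 and 0.478 CPM with shRNA2, and 1.07 and 1.14 CPM in shControl. All 4 knockdown libraries lay below both controls, but neither hairpin alone passed the test (edgeR adjusted p = 0.0690 for shRNA1 and 0.148 for shRNA2). The mean of both did (−1.46 ± 0.59, adjusted p = 0.0447), but the call was lost with DESeq2 (0.107), in the test against a fold of 1.2 (0.0698), with the trend on length and GC content removed (0.0517) and without any 1 library other than shRNA1 replicate 1 (0.0972 to 0.219). Without shRNA1 replicate 1 the value was −2.26 (0.00914). Of 9 renal carcinoma markers 8 passed the filter, with a sum of 8715 to 8855 CPM in knockdown and 7124 to 7131 CPM in shControl libraries. The remaining marker, NDUFA4L2, had 1 to 8 counts with the hairpins and 8 and 23 in shControl. VIM and KRT8 make up most of the sum, while VCAM1 went the other way (125 to 139 CPM with the hairpins, 318 and 324 CPM in shControl). Of 17 markers of other cell types 10 had no count in any library, among them PTPRC, CDH5, ALB and UMOD, and the sum was 9.54 to 11 CPM with the hairpins and 13.9 to 15.4 CPM in shControl. Of the detected ones the stromal markers LUM (4.64 to 5.91 CPM with the hairpins, 8.42 and 8.53 CPM in shControl) and PDGFRB (1.41 to 2.2 CPM, against 3.10 and 4.51 CPM) were lower in every knockdown library. The part of these marker differences in the results was not tested. On the second principal component shRNA1 replicate 1 stood apart from the other libraries (50.4 against −23.0 to 4.99).

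The family's summed level was lower in every knockdown library, and its make-up differed between knockdown and shControl. All members together summed to 1462 to 1481 CPM in the 4 knockdown libraries and to 1525 and 1563 CPM in the shControl libraries. Without ABCA2, the sum was 1299 to 1326 CPM with the hairpins and 1159 and 1196 CPM in the controls. These sums depend on the scaling: without TMM factors all members summed to 1408 to 1431 CPM with the hairpins and 1646 and 1668 CPM in the controls. Without ABCA2 the unscaled sums overlapped (1252 to 1279 CPM with the hairpins, 1251 and 1276 CPM in the controls). The share held by members of the lipid export group was 27.2 to 29.2% with the hairpins, against 41.6 and 43.2% in the controls, and that of the ribosome ATPases was 22.1 to 23.3%, against 12.1 and 13.6%. Neither pair of ranges overlapped. ABCA2 carries most of the first difference. The other members of the lipid export group held 17 to 18.1% with the hairpins and 18.2 and 19.2% in the controls. These are shares of all members, ABCA2 included. The same other members summed to 251 to 267 CPM with the hairpins, against 284 and 293 CPM in the controls. Of the family without ABCA2 they thus held less in each knockdown library than in either control. In these bulk libraries fewer cells that express a gene and less of its RNA per cell cannot be told apart.

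Compared per length of exon (RPKM, the CPM per kb), the order of levels also differed at its top. ABCF2 was highest under both hairpins, at 41.5 ± 1.8 RPKM with shRNA1, 40.2 ± 0.58 with shRNA2 and 20.4 ± 3.0 in shControl (SD, n = 2 each). ABCA2 was highest in shControl and held ranks 6 and 5 under shRNA1 and shRNA2, at 13.9 ± 0.38 and 13.4 ± 1.4 RPKM, against 31.8 ± 0.075 in shControl. ABCC3 held rank 2 in each group. In shRNA1 cells ABCF3 and ABCA1, both at 15.3 RPKM, did not differ beyond their spread. Of the 31 tested members 22 reached a mean of 1 RPKM over the groups, 14 reached 5 and 7 reached 10. ABCB1, the multidrug exporter P-glycoprotein, stood near the lower end of this range, at 1.09 ± 0.11 and 1.09 ± 0.097 RPKM with the hairpins and 1.18 ± 0.076 in shControl.

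**Figure D1:**
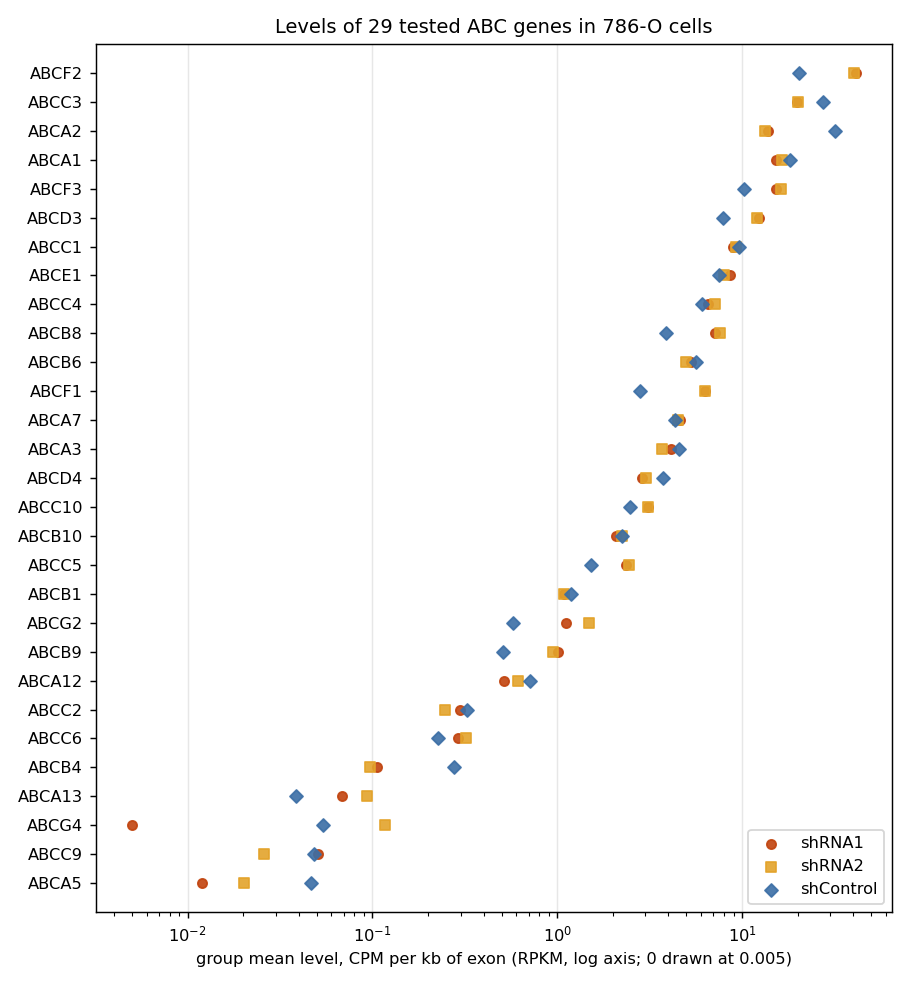
Group mean level of 29 tested ABC genes in CPM per kb of exon (RPKM) on a log axis, with a symbol for shRNA1, shRNA2 and shControl. ABCF2 leads with both hairpins and ABCA2 in shControl, and ABCG4 in shRNA1, with no counts, is drawn at the left edge.

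The count of changed members was close to that of all genes. For the mean of both hairpins against shControl 11 members were higher, 6 lower and 14 not called, so that 54.8% of tested members were called against 57.5% of all tested genes. Members called higher were 35.5% and lower 19.4%, against 28.6 and 28.9% of all tested genes. Changes of at least 0.5 log2 units were called in 11 members (35.5%, against 34.4% of all tested genes), 9 of them upward, and changes over 1 log2 unit in 4 (12.9%, against 12.7%). With shRNA1 alone 11 members were higher and 5 lower, where 26.8% of all tested genes were higher and 25.6% lower (52.4% called). With shRNA2 alone 11 were higher and 6 lower, where 26.7% of all tested genes were higher and 26.1% lower (52.8% called). Both comparisons use the same control libraries. In 15 members, 10 higher and 5 lower, the call had the same direction with each hairpin (48.4%, against 46.8% of all tested genes). ABCA3 and ABCC4 were called with shRNA2 alone and ABCE1 with shRNA1 alone, while the difference between hairpins passed for none of them. In 19 members the 4 knockdown libraries did not overlap the 2 controls (61.3%, against 67% of all tested genes).

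The median log2 fold change of the tested members was −0.05 for the mean of both hairpins, against −0.03 for all tested genes, and 0.01 and 0.06 for shRNA1 and shRNA2 alone. The medians for single hairpins and for their mean thus differ in sign, all close to 0. When libraries were scaled by total counts alone, the median of all genes was −0.18, and 9 of 31 tested members were higher and 9 lower. Of all 16039 tested genes 9426 were called in that setting. ABCA7 and ABCE1, neither called, then changed sign (−0.08 and −0.03, against 0.08 and 0.13 with TMM).

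**Figure D2:**
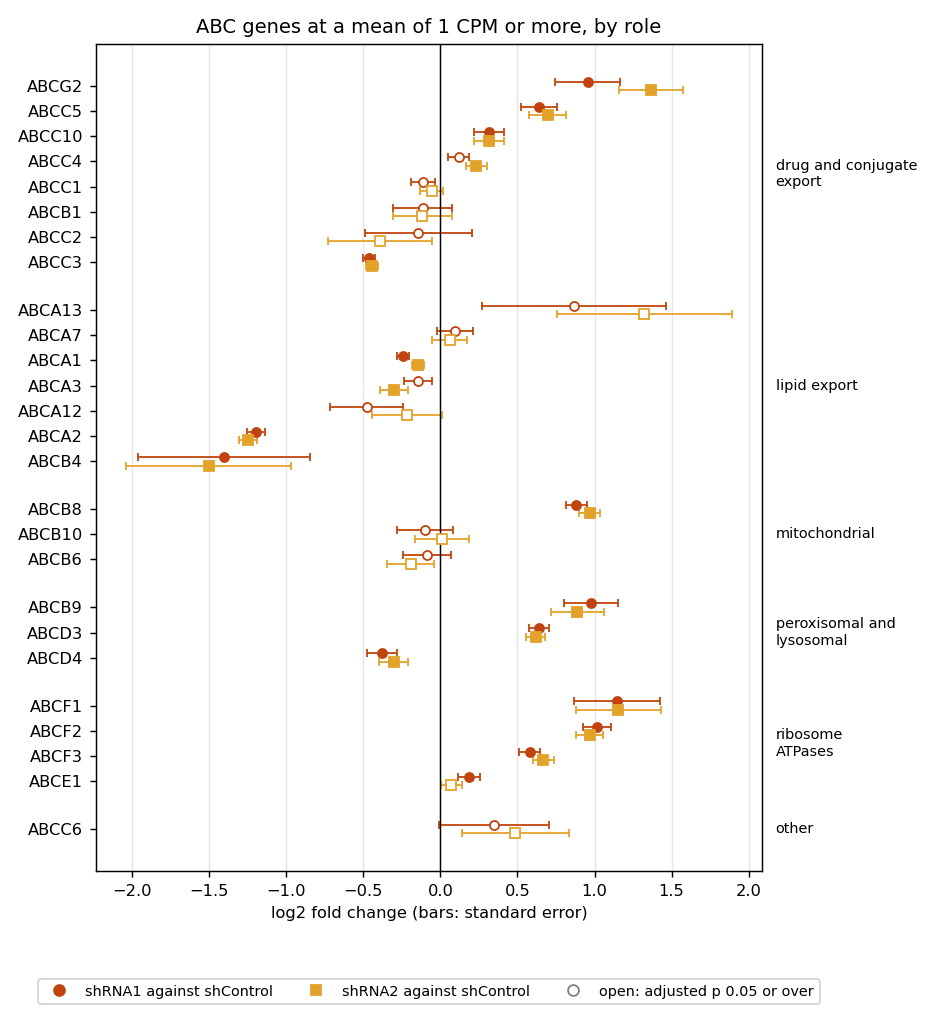
Log2 fold change of ABC genes with a mean of at least 1 CPM, by role, with shRNA1 (circles) and shRNA2 (squares) each against shControl. Bars are standard errors, filled symbols passed the threshold, and ABCA2 at −1.20 and −1.25 stands farthest left among the genes with small errors.

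Among exporters of drugs and conjugates 4 of 8 tested members rose, 1 fell and 3 were not called, where 28.6% of all tested genes were higher and 28.9% lower. ABCG2, the breast cancer resistance protein that exports urate and many drugs, lies at chr4:88090264-88231322 on the minus strand (GENCODE 29 on GRCh38). It had 5.58 and 5.70 CPM with shRNA1, 7.53 and 7.46 CPM with shRNA2, and 2.68 and 3.10 CPM in shControl. Every knockdown library lay above both controls, and those of shRNA2 above those of shRNA1. Set against shControl on the log2 scale, shRNA1 libraries were higher by 0.96 ± 0.21 (edgeR adjusted p = 0.00144), and for shRNA2 the change was 1.37 ± 0.21 (4.63e-05). Between the hairpins it was −0.41 (95% interval −0.84 to 0.02), which did not pass the test.

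ABCC5, an exporter of cyclic nucleotides and nucleotide analogues at chr3:183919934-184018015, had 26.7 and 27.4 CPM with shRNA1, 26.6 and 29.7 CPM with shRNA2, and 19.5 and 15.4 CPM in shControl. The knockdown libraries did not overlap the controls, and the change was 0.67 ± 0.11 for the mean of both hairpins (adjusted p = 5.56e-05). ABCC10, linked to efflux of taxanes, rose by a smaller amount that was alike under both hairpins (0.32 ± 0.09, adjusted p = 0.00554), with 24.9 to 25.2 CPM in knockdown and 19.4 and 20.8 CPM in shControl libraries. Its call was lost without shControl replicate 1 (0.26, adjusted p = 0.0666), with total counts (0.16, 0.120) and in the test against a fold of 1.2 (0.211). ABCC4, which exports cyclic nucleotides and prostaglandins, had 56.0 to 63.2 CPM with the hairpins and 51.2 and 53.0 CPM in shControl (0.18 ± 0.06, adjusted p = 0.0181). Its call was lost with DESeq2 (0.0520), with total counts (0.02, 0.777), with no filter (0.0706), in the test against a fold of 1.2 (0.901) and in fits that left out shControl replicate 1 (0.163), shControl replicate 2 (0.0619) or replicate 2 of shRNA2 (0.0562). With the trend on length and GC content removed the value was 0.30 and called.

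ABCC3, which exports glucuronide conjugates across the basolateral membrane, was the most abundant exporter of this group and the one that fell. It had 190.3 and 190.4 CPM with shRNA1, 188 and 197 CPM with shRNA2, and 262 and 263 CPM in shControl. Knockdown and control did not overlap. The change was −0.45 ± 0.03 for the mean (adjusted p = 1.07e-08). ABCC1, the exporter of glutathione conjugates, had 67.3 and 68.3 CPM with shRNA1, 71.9 and 69.2 CPM with shRNA2, and 66.8 and 79.7 CPM in shControl, and was not called (−0.09, interval −0.23 to 0.05, adjusted p = 0.286). The control libraries of ABCC1 bracketed the knockdown libraries. Without shControl replicate 1 it was called lower (−0.21, 0.0237), as with total counts (−0.24, 0.00474), and without shControl replicate 2 its sign turned (0.04).

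ABCB1 had 5.91 to 6.79 CPM with the hairpins and 6.56 and 7.19 CPM in shControl, and its change of −0.12 (interval −0.47 to 0.24) was not called. ABCC2, the apical conjugate exporter of tubule cells, was scarce (1.67 to 2.35 CPM with the hairpins, 1.82 and 3.25 CPM in shControl) and not called. ABCC11 had at most 4 counts in a library and was not tested.

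Sensors of foreign compounds and genes of glutathione metabolism, which make substrates for ABCC proteins, moved both ways. AHR, the aryl hydrocarbon receptor, fell to 73.3 and 74.3 CPM with shRNA1 and shRNA2, against 219 CPM in shControl (−1.57 ± 0.04, adjusted p = 7.85e-14). NFE2L2, which encodes NRF2, fell (−0.43 ± 0.04) and KEAP1, its inhibitor, rose (0.57 ± 0.05). Of 6 sensor genes 4 were tested, of which 1 was higher and 2 lower. NR1I2, the pregnane X receptor, had no counts. Counts of this and the further lists stand against 28.6% higher and 28.9% lower among all tested genes. Among 11 glutathione genes 7 were higher and 3 lower (median 0.31), with GSTP1 (0.68 ± 0.11) and GSTO1 (0.41 ± 0.06) up and GCLC, the catalytic subunit of glutathione synthesis, down (−0.71 ± 0.07).

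In the lipid export group 4 of 9 tested members fell, none rose and 5 were not called, where 28.9% of all tested genes were lower. The calls of ABCA3 and ABCB4 depend on single libraries and those of ABCA1 and ABCA2 do not. ABCA2, an endosomal and lysosomal transporter tied to sterol and sphingolipid traffic, lies at chr9:137007227-137028922 on the minus strand. It had 157 and 163 CPM with shRNA1, 165 and 143 CPM with shRNA2, and 366 and 367 CPM in shControl. The knockdown libraries lay far below both controls and close to each other. For shRNA1 the change was −1.20 ± 0.06 (adjusted p = 2.61e-08), for shRNA2 −1.25 ± 0.06 (1.58e-08), and between the hairpins 0.05 (interval −0.08 to 0.18).

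ABCA1, which loads cellular cholesterol onto apolipoproteins, had 175 and 173 CPM with shRNA1, 189 and 183 CPM with shRNA2, and 205 and 206 CPM in shControl. Each knockdown library lay below both controls, by a small margin. The change was −0.24 ± 0.04 with shRNA1 and −0.14 ± 0.04 with shRNA2 (adjusted p = 1.03e-04 and 0.00593). The mean, −0.19, became −0.35 with total counts and −0.09 with the trend on length and GC content removed, both called, and it did not pass a test against a fold of 1.2 (0.979). ABCA3, the lamellar body transporter of surfactant lipids, had 27.6 to 33.1 CPM with the hairpins and 33.8 and 37.5 CPM in shControl and was called lower (−0.22 ± 0.08, adjusted p = 0.0241). That call was lost with DESeq2 (0.0790), in the test against a fold of 1.2 (0.604) and in the fits that left out shControl replicate 1 (0.215), replicate 2 of shRNA1 (0.0781) or replicate 2 of shRNA2 (0.0745). With total counts the value was −0.38.

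ABCB4, the phosphatidylcholine floppase of bile canaliculi, is a neighbour of ABCB1 on chromosome 7, with 23.2 kb between the genes. It had 1.21 and 0.418 CPM with shRNA1, 0.639 and 0.861 CPM with shRNA2, and 2.84 and 1.43 CPM in shControl. The knockdown libraries did not overlap the controls, but the controls differed widely from each other. The change was −1.46 ± 0.45 (adjusted p = 0.0119), and without shControl replicate 1 it was −0.90 and not called (0.278). ABCA7, a phospholipid exporter, had 34.3 to 42.9 CPM with the hairpins and 34.1 and 38.5 CPM in shControl, with no call (0.08, interval −0.15 to 0.30).

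ABCA12, a glucosylceramide transporter of skin, was not called (−0.35 ± 0.20, adjusted p = 0.147) except with total counts (−0.50, 0.0399). ABCA13, at 0.680 to 2.01 CPM with the hairpins and 0.392 and 1.07 CPM in shControl, was not called (1.09 ± 0.52, 0.0873). It was called higher without shRNA1 replicate 2 (1.41, 0.0238), without shControl replicate 1 (1.92, 0.0339) and with no filter (1.08, 0.0486). The value shrank to 0.65 without shRNA1 replicate 1 (0.306) and to 0.48 without shControl replicate 2 (0.539), so that it rests on single libraries in either direction. ABCA5 had 0 to 7 counts in knockdown and 11 and 18 in shControl libraries and was not called (−1.54, interval −3.22 to 0.14, adjusted p = 0.109). Without shRNA1 replicate 2 it passed the threshold (0.0232), but shRNA1 is then 1 library with no count and the fitted fold is no measured value. ABCG4, a sterol exporter of neural tissue, was detected in some libraries only, with 0 and 0 counts in shRNA1, 10 and 25 in shRNA2, and 0 and 19 in shControl. ABCG1, which exports cholesterol to high-density lipoprotein, had 2 counts in shRNA2 replicate 1 and no others, where ABCA1 had 2608 to 6790 counts with the hairpins and 3824 and 5778 in shControl.

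Promoter windows of 300 bases (250 before and 50 after a start) were taken from RefSeq on GRCh38.p14. They are shown for ABCA1, the member with an oxysterol receptor motif, for ABCA2 and ABCG2, the members with a strong fall and rise in the lipid and drug groups, and for ABCF2, the most abundant member that rose. Capitals mark letters that match a searched motif on either strand.
ABCA1, chr9:104928106-104928405, minus strand: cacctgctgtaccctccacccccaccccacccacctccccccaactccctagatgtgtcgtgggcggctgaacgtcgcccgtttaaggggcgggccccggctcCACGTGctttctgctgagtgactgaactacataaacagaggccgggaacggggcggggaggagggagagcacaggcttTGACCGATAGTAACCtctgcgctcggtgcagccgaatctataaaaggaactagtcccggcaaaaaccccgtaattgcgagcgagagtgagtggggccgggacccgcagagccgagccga
ABCA2, chr9:137028873-137029172, minus strand: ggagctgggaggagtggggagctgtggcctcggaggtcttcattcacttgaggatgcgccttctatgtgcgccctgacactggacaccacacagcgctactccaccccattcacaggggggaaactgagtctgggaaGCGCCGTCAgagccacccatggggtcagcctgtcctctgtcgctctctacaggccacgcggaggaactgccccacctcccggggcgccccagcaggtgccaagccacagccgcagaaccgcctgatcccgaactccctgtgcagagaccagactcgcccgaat
ABCG2, chr4:88158810-88159109, minus strand: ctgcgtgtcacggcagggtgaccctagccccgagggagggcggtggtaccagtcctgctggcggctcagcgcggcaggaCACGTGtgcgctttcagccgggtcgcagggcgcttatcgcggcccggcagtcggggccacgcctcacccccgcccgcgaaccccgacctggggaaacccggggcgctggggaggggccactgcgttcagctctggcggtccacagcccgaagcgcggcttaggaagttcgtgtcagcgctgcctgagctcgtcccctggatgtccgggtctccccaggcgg
ABCF2, chr7:151227156-151227455, minus strand: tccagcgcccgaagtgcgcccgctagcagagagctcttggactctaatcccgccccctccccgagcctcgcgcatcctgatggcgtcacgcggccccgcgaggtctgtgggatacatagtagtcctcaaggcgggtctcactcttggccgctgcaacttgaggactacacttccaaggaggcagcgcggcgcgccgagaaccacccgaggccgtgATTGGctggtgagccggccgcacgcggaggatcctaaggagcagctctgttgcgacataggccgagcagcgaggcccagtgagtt

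The table held 53 windows of 35 members, and 26 of the 31 tested members had at least 1. ABCB4, ABCC1 and ABCC3 were among those with none. ABCA2 has 2 windows and ABCG2 has 5, of which 1 each is shown. Those shown carry a match, while the other window of ABCA2 and some others of ABCG2 carry none. Searched on both strands were 9 motifs. The oxysterol receptor repeat, a pair of GGTNA sites with 5 free bases between them, occurred in 0.626% of all 35116 windows and in that of ABCA1 alone among members, at position 182 of the window. The antioxidant response core TGACNNNGC occurred in 12 of 53 member windows (13.347% of all windows). These belong to 12 members, among them ABCA2 and another window of ABCG2. The E-box CACGTG occurred in 9 of 53 member windows (7.256% of all windows), from 8 members, ABCA1 and ABCG2 included. The core ACGTG, which every E-box contains, occurred in 14 of 53 (21.409%), from 12 members. CCAAT occurred in 12 of 53 member windows (34.614% of all windows), from 11 members. ABCF2 is included, in which it is read on the opposite strand. TTGCATCA was found in ABCA13 (0.866%) and TGACGTCA in ABCE1 (1.848%). The sterol element TCACNCCAC (1.128%) and the heat shock element, the triplets GAA, TTC and GAA each 2 bases apart (0.490%), were in no member's window. Members with more than 1 window had more chances of a match, and a match is a run of letters, not a shown binding site.

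Among genes of the oxysterol receptors and their targets 9 of 11 were tested, of which 4 were higher and 1 lower (median 0.05). RXRA, the partner of these receptors, rose to 160.5 and 162 CPM with the hairpins, against 123 CPM in shControl (0.39 ± 0.04). LPCAT3, a phospholipid remodelling enzyme, rose by 1.15 ± 0.10 and SREBF1, the lipogenic regulator, by 0.34 ± 0.04. The 1 lower gene was MYLIP (−0.89 ± 0.13).

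Of the transporters of the mitochondrial membranes, ABCB8 rose and 3 others were not called. ABCB8, an inner membrane protein that is part of the mitochondrial ATP-sensitive potassium channel, had 67.6 and 66.1 CPM with shRNA1, 70.1 and 71.8 CPM with shRNA2, and 37.6 and 35.0 CPM in shControl. Knockdown and control libraries stood far apart, with a change of 0.88 ± 0.07 and 0.97 ± 0.07 with shRNA1 and shRNA2 (adjusted p = 3.00e-08 and 8.53e-09). ABCB10, of the haem pathway, had 7.59 to 10.2 CPM with the hairpins and 8.69 and 10.3 CPM in shControl (−0.05, interval −0.37 to 0.28).

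ABCB6, a porphyrin transporter, was not called (−0.14, interval −0.44 to 0.16). A further gene annotated on the same strand shares 54.7% of its exon bases, so that reads of the pair cannot be told apart with certainty. With the counts of that gene added, ABCB6 was called lower (−0.28, 0.0444), as it was without shRNA2 replicate 2 (−0.27, 0.0380). Genes that make iron-sulfur clusters and haem split into 3 higher, 4 lower and 6 not called (median 0.17). ALAS1, the first enzyme of haem synthesis, rose (0.60 ± 0.05), as did GLRX5, a carrier of iron-sulfur clusters (0.64 ± 0.08), while FECH, the last enzyme of haem synthesis, fell (−0.51 ± 0.08).

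Peroxisomal and lysosomal transporters were called in each of the 4 tested members, 3 upward, where 57.5% of all tested genes were called. ABCD3, the peroxisomal protein PMP70 that imports branched fatty acids and bile acid precursors, had 95.8 and 90.6 CPM with shRNA1, 95.1 and 88.3 CPM with shRNA2, and 60.9 and 58.8 CPM in shControl. The knockdown libraries did not overlap the controls, and the change was nearly equal under both hairpins (0.64 ± 0.06 and 0.62 ± 0.06, adjusted p = 4.25e-07 and 5.18e-07). ABCB9, a lysosomal peptide transporter, had 12 and 14.9 CPM with shRNA1, 11.9 and 13.4 CPM with shRNA2, and 5.79 and 7.74 CPM in shControl (0.93 ± 0.15 for the mean, adjusted p = 9.38e-05). Genes on the opposite strand share up to 20.7% of its exon bases, and the strand setting of the counts is not given in the sources used here. ABCD2, a peroxisomal importer of fatty acids, had 2 counts in 1 library.

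ABCD4, which moves cobalamin out of lysosomes, was lower (−0.34 ± 0.08, adjusted p = 0.00216), at 24.5 to 27.0 CPM with the hairpins and 30.5 and 34.8 CPM in shControl. Its call was lost without shControl replicate 2 (−0.25, 0.0660) and in the test against a fold of 1.2 (0.134). In the cobalamin route 3 genes were higher, 2 lower and 1 not called (median 0.19), with MTRR at −0.45 ± 0.07, MTR at 0.33 ± 0.06 and MMADHC at 0.33 ± 0.06. In peroxisomal import and beta-oxidation 4 genes were higher, 3 lower and 2 not called (median −0.01). The thiolase ACAA1 (0.69 ± 0.07) and SCP2 (0.44 ± 0.05), a lipid carrier and thiolase, rose, and the import receptor PEX5 fell (−0.45 ± 0.08).

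All 3 ABCF genes rose with each hairpin, where 26.8% of all tested genes were higher with shRNA1 and 26.7% with shRNA2. ABCF2, at chr7:151212490-151227230, had 179 and 168 CPM with shRNA1, 169 and 166 CPM with shRNA2, and 76.7 and 94.1 CPM in shControl. The control libraries differed from each other by more than the knockdown libraries did, yet stayed below all of them. The change was 0.99 ± 0.08 for the mean (adjusted p = 2.06e-05). A read-through gene on the same strand, ABCF2-H2BE1, shares 45.8% of the exon bases of ABCF2 and had 0 and 0 counts with shRNA1, 25 and 0 with shRNA2, and 26 and 34 in shControl. ABCF2-H2BE1 passed the filter only with its shControl counts, so a lower call was likely from the start and is no result. By edgeR it was called lower with shRNA1 (adjusted p = 0.014) and for the mean (0.0129), and not with shRNA2 (0.182). As shRNA1 had no count, its fitted fold is no measured value. With the counts of ABCF2-H2BE1 added the change of ABCF2 was 0.97 (1.34e-05).

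ABCF3 had 78.8 and 80.7 CPM with shRNA1, 81.6 and 88.0 CPM with shRNA2, and 50.5 and 56.0 CPM in shControl (0.62 ± 0.06, adjusted p = 3.09e-07). ABCF1, which binds initiation factor eIF2 and ribosomes, had 34.4 and 22.6 CPM with shRNA1, 27.6 and 29.6 CPM with shRNA2, and 10.2 and 15.1 CPM in shControl. Its replicates were wide apart in shRNA1 and in shControl, without overlap of knockdown and control. The change was 1.15 ± 0.25 (adjusted p = 0.0139), and it narrowly missed the threshold without shRNA2 replicate 1 (1.17, 0.0583) or replicate 2 (1.13, 0.0526).

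ABCE1, which splits ribosomes after termination, had 52.1 and 55.4 CPM with shRNA1, 48.6 and 50.9 CPM with shRNA2, and 46.8 and 47.7 CPM in shControl. It was called with shRNA1 (0.19 ± 0.07, adjusted p = 0.0401) and not with shRNA2 (0.07 ± 0.07, 0.418) or for the mean (0.13 ± 0.06, 0.0872). The mean was called without shRNA1 replicate 1 (0.17, 0.0348) and with the trend on length and GC content removed (0.32, 4.10e-04). Among 10 other factors of initiation, termination and stalled ribosomes, subunits of eIF2 included, 7 were higher and 3 lower (median 0.33). Of all tested genes 28.6% were higher and 28.9% lower. GCN1, which reads collided ribosomes, rose to 305 and 314 CPM with the hairpins, against 151 CPM in shControl (1.03 ± 0.04). HBS1L, a rescue factor, rose by 0.79 ± 0.05, and EIF2S2, the beta subunit of eIF2, fell (−0.70 ± 0.04).

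**Figure D3:**
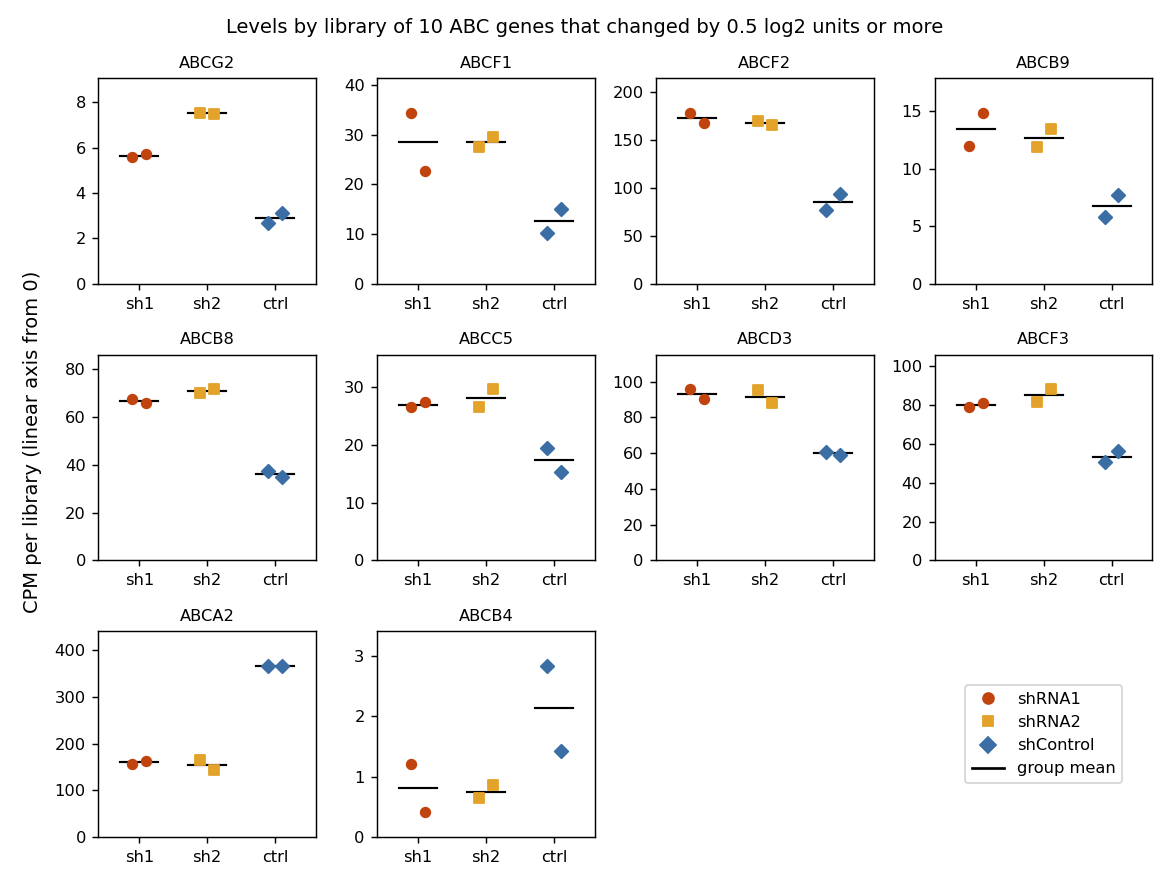
CPM in each library, on linear axes from 0, for 10 ABC genes called with a change of at least 0.5 log2 units. Dots are libraries (sh1 for shRNA1, sh2 for shRNA2, ctrl for shControl) and lines group means. In each of the 10 genes the 4 knockdown libraries lie on 1 side of both controls. Choosing the genes by their change in these libraries makes this likely, and it held for 67% of all tested genes.

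By summed level, the ribosome ATPases had 327 to 344 CPM with the hairpins, against 184 and 213 CPM in shControl. Peroxisomal and lysosomal members had 178 to 194 CPM, against 126 and 132 CPM, and mitochondrial members 144 to 153 CPM, against 120.0 and 123 CPM. Drug and conjugate exporters had 381 to 400.4 CPM, against 431 and 445 CPM, although 4 of the 5 called members of that group rose, with ABCC3 alone at 188 to 197 CPM, against 262 and 263 CPM. The lipid export group, which includes the endosomal and lysosomal ABCA2, had 399 to 433 CPM, against 651 and 659 CPM. Without ABCA2 the sums were 251 to 267 CPM, against 284 and 293 CPM.

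**Figure D4:**
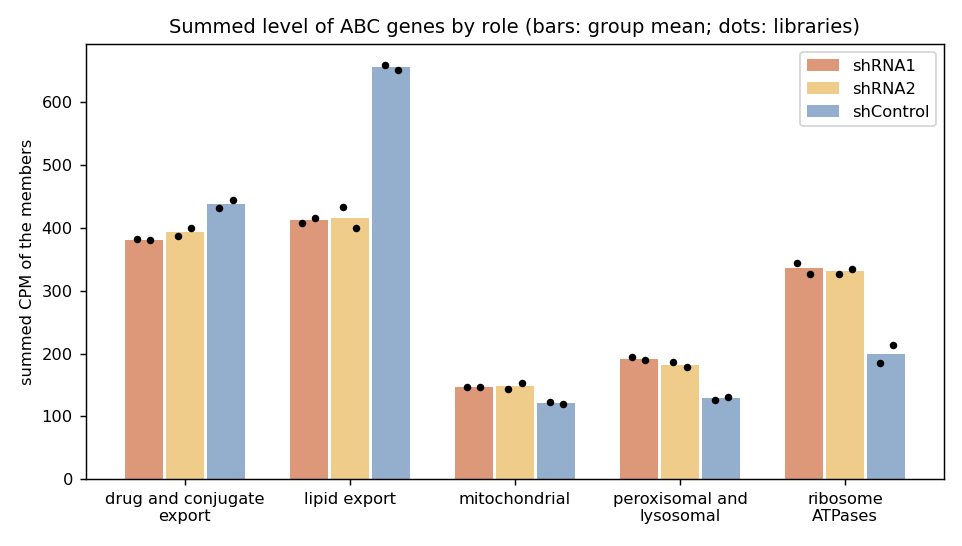
Summed CPM of the ABC genes in each of 5 role groups, with bars for the mean of shRNA1, shRNA2 and shControl and dots for libraries. The lipid export sum is 399 to 433 CPM with the hairpins and 651 and 659 CPM in shControl, and the ribosome ATPase sum 327 to 344 CPM and 184 and 213 CPM.

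By subfamily, higher and lower calls for the mean of both hairpins were 0 and 3 of 7 tested in ABCA, 2 and 1 of 7 in ABCB, 3 and 1 of 8 in ABCC, 2 and 1 of 3 in ABCD, 0 and 0 of 1 in ABCE, 3 and 0 of 3 in ABCF and 1 and 0 of 2 in ABCG. For comparison, calls were made in 28.6% (higher) and 28.9% (lower) of all tested genes. Subfamilies of so few members were not compared by a test.

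Several members are close neighbours. ABCB8 and ABCF2, both higher, lie 165 kb apart on chromosome 7. Of 8 other tested genes in the stretch they span 6 were higher and 2 lower (75% higher, against 28.6% of all tested genes). The read-through gene ABCF2-H2BE1 is among the 8 and among the lower ones. It shares exon bases with ABCF2 and is no separate neighbour. ABCC5 and ABCF3, both higher, lie 168 kb apart on chromosome 3, where 1 of 4 other tested genes was higher and 1 lower. ABCC1 and ABCC6 lie 5.85 kb apart on chromosome 16 and neither was called. In the cluster of ABCA5, ABCA6, ABCA8, ABCA9 and ABCA10 on chromosome 17 no gene had more than 18 counts in a library.

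No member was called between shRNA1 and shRNA2 by edgeR, where 0.0312% of all tested genes were (0.00623% higher and 0.0249% lower with shRNA1). Before adjustment 3 members had an edgeR p under 0.05, among them ABCA1 and ABCG4. The share of all tested genes at that threshold was not counted, so this number is no result about the members. DESeq2 also called no member. With no filter edgeR called ABCG4 lower with shRNA1 (adjusted p = 0.0273), which had no count of it. ABCG4 had 10 and 25 counts in shRNA2, and 0 and 19 in shControl, so a control library was without counts too. Among members called for the mean of both hairpins, the difference between hairpins was lowest for ABCG2 (−0.41).

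The remaining members were scarce. ABCC6, which supports release of ATP from hepatocytes, had 1.88 to 2.51 CPM with the hairpins and 1.23 and 2.18 CPM in shControl and was not called (0.42 ± 0.31), and reads may be shared with its near-identical pseudogenes. ABCC9, the SUR2 regulator of potassium channels, had 5 to 13 counts with the hairpins and 7 and 21 in shControl and was not called. ABCA4, the retinal transporter, did not pass the filter, with 0 to 11 counts in knockdown libraries and 11 and 7 in shControl. ABCA8, ABCB5, ABCB11 and ABCC12 had 1 to 2 libraries with counts, of at most 3. ABCA6, ABCA9, ABCA10, ABCC8, ABCC13, ABCG5 and ABCG8 had no count in any library, which allows up to 0.0218 CPM over all libraries (3 counts, counting error only).

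Of ABC genes with other names, TAP1 and TAP2, the peptide transporters of antigen presentation, were lower for the mean of both hairpins. TAP1 had 6.25 and 7.95 CPM with shRNA1, 7.14 and 7.85 CPM with shRNA2, and 14.5 and 15.8 CPM in shControl (−1.05 ± 0.14, adjusted p = 7.33e-06), and TAP2 changed by −0.99 ± 0.24 (0.00252). TAP2 was called with shRNA2 (−1.29, 0.00163) and missed the threshold with shRNA1 (−0.70, 0.0526). The pseudogene ABCA11P was not called (0.57 ± 0.29, 0.108).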

How the data were processed

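For each of 6 libraries of 786-O cells the authors deposited a count per gene, in whole numbers and not normalized. Per the submitters' processing notes, reads were checked with FastQC 0.11.9, trimmed with Trim Galore 0.6.7 and aligned to hg38 with HISAT2 2.2.1, and StringTie 2.2.1 was used. No source used here names the counting tool, its annotation, its strand setting or how it treated reads shared between genes. The counts may therefore be read counts or values derived from StringTie coverage, and in that case low counts and limits of 3 counts are approximate.

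Groups, columns and replicates follow the labels. R 4.3.3 with edgeR 4.0.16 was used: genes passing filterByExpr by group, TMM factors, a robust quasi-likelihood fit of 3 group means, and Benjamini-Hochberg adjustment over 16039 genes. Alternatives were DESeq2 1.42.0, RLE factors, total counts, no filter, a stricter filter (at least 10 counts in 2 or more libraries, with 1 CPM on average), a fit with replicate as a block, a fit to the compared groups alone, glmTreat against a 1.2-fold change and each library left out. A trend on length and GC content (mgcv 1.9.3; 99.1% of tested genes) and added counts of overlapping genes and sums without TMM factors were chosen after the data were seen. The code was tested on simulated data. Positions and exon lengths come from GENCODE 29, which holds 58381 of 60649 IDs (96.3%).

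Members and lists were chosen with earlier results of these data known. Counts, medians and sums cover all members; 2 tested members are not reported singly here. The other tested members are named, and those called at 0.5 log2 units or more get each library's value. Lists also covered oxysterol receptors, xenobiotic sensors, glutathione, iron-sulfur and haem, peroxisomes, cobalamin, ribosome factors and cell type markers. Up to 3 genes of smallest p were named from each, and NR1I2, MYLIP and marker names were chosen after their values were seen. Intervals of differences are 95% intervals of the edgeR fit.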

Additional observations from a re-analysis of the deposited data

How the results depend on the processing

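Among the called members reported here, 9 kept their call and direction under every alternative run: ABCA2, ABCB8, ABCB9, ABCC3, ABCC5, ABCD3, ABCF2, ABCF3 and ABCG2. The share of all tested genes that did so was not counted, so this number is no result about the members. The count of members called for the mean of both hairpins ran from 12 (test against a fold of 1.2) to 18, against 17. Calls among all 16039 tested genes fell in that test as well. They were 5790 with shRNA1 alone and 5815 with shRNA2 alone, against 8400 and 8462 in the main fit. Of all 16039 tested genes 9223 were called in the main fit and 9426 with total counts, where 18 members were called. Between hairpins it was 0 in all settings except no filter, where 1 member (ABCG4) was called. Values that changed sign were ABCA7 and ABCE1 with total counts (−0.078 and −0.026), and ABCB1 and ABCB10 with the length and GC trend removed (0.0033 and 0.051). With single libraries left out ABCA7 ran from −0.016 to 0.17, ABCB10 from −0.17 to 0.084, ABCC1 from −0.21 to 0.044, ABCC2 from −0.61 to 0.22, ABCC9 from −0.86 to 0.16 and ABCG4 from −3.48 to 3.49. The end of opposite sign came without shControl replicate 2, and for ABCB10 also without shRNA1 replicate 1 (0.066). The ends of ABCG4 are fits in which a group is at 0 counts and are no measured folds. The cause was not tested.

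The median log2 change of tested members is close to 0 and moves with the setting. For the mean of both hairpins it was −0.20 with total counts, 0.082 with the stricter filter, 0.051 with the length and GC trend removed and −0.055 to 0.15 with libraries left out. For shRNA1 it was 0.045 with DESeq2, −0.14 with total counts, 0.088 with the stricter filter, −0.067 with the replicate block, 0.040 with only the groups compared, 0.19 with the trend removed and −0.039 to 0.084 with libraries left out. For shRNA2 it was −0.10 with total counts, 0 with no filter, 0.14 with the trend removed and 0.0012 to 0.086 with libraries left out. The mean of both hairpins uses all groups, so a fit to only the groups compared gives it no separate value. Where a library was left out, the lone library of its group was assumed to vary like the other groups.

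Replicate numbers are shared by the groups, but nothing in the labels pairs the libraries, and deviations of same-numbered libraries were uncorrelated (−0.029 to 0.011). The replicate block called 16 members in place of 17, and 9170 of all 16039 tested genes in place of 9223. Among called members ABCF1 lost its call (adjusted p = 0.0549). LINC02068 lost its call as well (−1.52, 0.0506). Depth limits the scarce members: 3 counts over a group stand for 0.0882 CPM in shRNA1, 0.0527 in shRNA2 and 0.0643 in shControl.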
